A study of Mus musculus with 6 samples.

Results

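Serpins, trypsin-type serine proteases and the plasminogen system were described as 1 set of 52 genes among the 14998 genes of the deposited expression table. Members were taken by name: serpins of clades A to I other than Serpinh1, numbered Prss, Tmprss and Htra protease genes, Spint1 and Spint2, and Plau, Plat, Plaur, F3, Thbd, Tfpi, Tfpi2, St14 and Kazald1. The rule uses names only, but it was set with earlier results of these data known. RNA came from whole testes of male mice, with 3 libraries in each of 2 groups. Controls were Lats1flox/flox;Lats2flox/flox, carrying floxed alleles of both Hippo pathway kinase genes and no Cre. Knockouts were Lats1flox/flox;Lats2flox/flox;Amh-cre, that is, the same floxed alleles, which both groups therefore share, together with Cre driven by the Amh promoter. That promoter is active in Sertoli cells, the somatic cells that nurse germ cells inside the testis cords, so that Cre is not directed to the other cells of the organ. The age of the mice is not given in the sources used here.

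Serine proteases cut proteins with an active-site serine, and serpins inhibit most of them as suicide substrates, which trap the enzyme in a covalent complex. In the plasminogen system, urokinase and tissue plasminogen activator turn plasminogen into plasmin, which dissolves fibrin and degrades matrix. The urokinase receptor holds urokinase at the cell surface, and several serpins stop the activators or plasmin itself. In rodents Sertoli cells secrete plasminogen activators, which have been linked to the remodelling of the cords as germ cells move through them.

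Levels are FPKM computed by the authors, which are fragments scaled to the length of the exons and to library size. Fold changes are ratios of group means of FPKM. Log2 fold changes, their standard errors and adjusted p-values come from limma on log2(FPKM + 1), a scale that understates the change of low genes, with Benjamini-Hochberg adjustment over the 13778 genes that averaged 1 FPKM or more. A gene passed the test at an adjusted p under 0.05. Libraries held 9490735 to 13620087 reads by the totals that the FPKM imply, and 1 read stood for 0.0174 to 0.0250 FPKM in the median gene. Spearman correlations across genes were 0.987 to 0.996 within groups and 0.845 to 0.871 between them. Nothing in the labels ties a library to an animal of its own, so p-values measure the spread between libraries, which may be technical.

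The sample labels give testes as the tissue, while the series' design text speaks of adrenal glands. Markers of testis cells were present in every library. The summed FPKM of 10 Sertoli cell markers was 353 to 367 in control and 211 to 236 in knockout libraries. Of the 10, 7 fell, among them Amh (64.2-fold) and Fshr (100.1-fold), and 3 rose, namely Cldn11 (3.08-fold), Wt1 (1.34-fold) and Sox9 (1.18-fold). The sums were 660 to 748 and 297 to 339 for 6 Leydig cell markers, and 149 to 167 and 38.9 to 65.0 for 7 germ cell markers, all of which fell. The sum of 9 macrophage markers was 38.2 to 39.5 in control and 347 to 405 in knockout libraries, that of 5 mast cell markers 13.7 to 14.7 and 53.7 to 76.7, and that of 6 mesothelial markers 59.7 to 61.7 and 209 to 225. All 9 macrophage and all 6 mesothelial markers rose, while 4 mast cell markers rose and 1 fell. Wt1 stands in both the Sertoli and the mesothelial list. Kit, the mast cell marker that fell, is also on the germ cell list and had 9.81 to 11.3 FPKM in controls. Endothelial markers, 6 in number, summed to 96.9 to 105 and 100 to 114, with overlapping groups. Of these, Emcn (2.62-fold) and Kdr (1.44-fold) rose, Cdh5 fell (1.39-fold) and 3 did not pass. The sum of 4 myoid markers was 136 to 160 in control and 197 to 220 in knockout libraries, where 2 rose and 2 fell. No marker of these lists was under 0.1 FPKM in all libraries. Of the adrenal list 4 genes were measured. Cyp21a1 was at 12.05 ± 2.33 FPKM in controls and 11.6 ± 1.66 in knockout libraries, Cyp11b1 rose from 4.76 ± 2.87 to 15.9 ± 5.16 FPKM, Mc2r rose from 3.98 ± 1.27 to 9.36 ± 1.31 FPKM, and Pnmt, at 19.4 ± 6.77 FPKM in controls, was listed at 0 in every knockout library. In bulk RNA of this kind, fewer cells of a type and less RNA per cell cannot be told apart. The part of these shifts in the results on proteases and serpins was not tested. Levels of Lats1 and Lats2 cover all exons and all cells of the organ, so they do not check the deletion, and all directions follow the labels.

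Of the 52 genes, 40 averaged 1 FPKM or more and were tested. In knockout libraries 15 were higher, 19 were lower and 6 did not pass. Over all genes tested 68.9% passed, 35.2% higher and 33.7% lower, against 85.0% of the 40. Changes of at least 2-fold were made by 11 higher and 12 lower genes, 57.5% of the 40, against 19.3% over all genes tested (8.49% higher and 10.8% lower). In 35 of the 40 (87.5%) each library of 1 group lay above each of the other, against 74.3% of all genes tested. The median log2 fold change was -0.22 in the 40 genes and 0.01 over all genes tested, and the median of its absolute size was 1.06 against 0.30. Of the 40, 10 had 1 group mean under 1 FPKM and entered the test through their other group, so that they had to differ, and the counts carry no weight for that reason. These 10 were Prss50, Serpina3a, Serpina3c, Serpina3n, Serpinb1b, Serpinb8, Serpinb9b, Serpinc1, Serpinf2 and Tmprss13. Their adjusted p-values, printed below, carry no weight either. The remaining 12 genes were under 1 FPKM on average and are given as levels. Without that filter 42 of the 52 passed, against 69.6% of all 14998 genes. In the authors' deposited table, 38 of the 52 genes have an FDR under 0.05, where 60.5% of all its genes do. Of the genes past the limma test, 2 are not under it there, Serpinb1a (DESeq FDR 0.0637) and Prss12 (DESeq FDR 0.123).

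**Figure D1:**
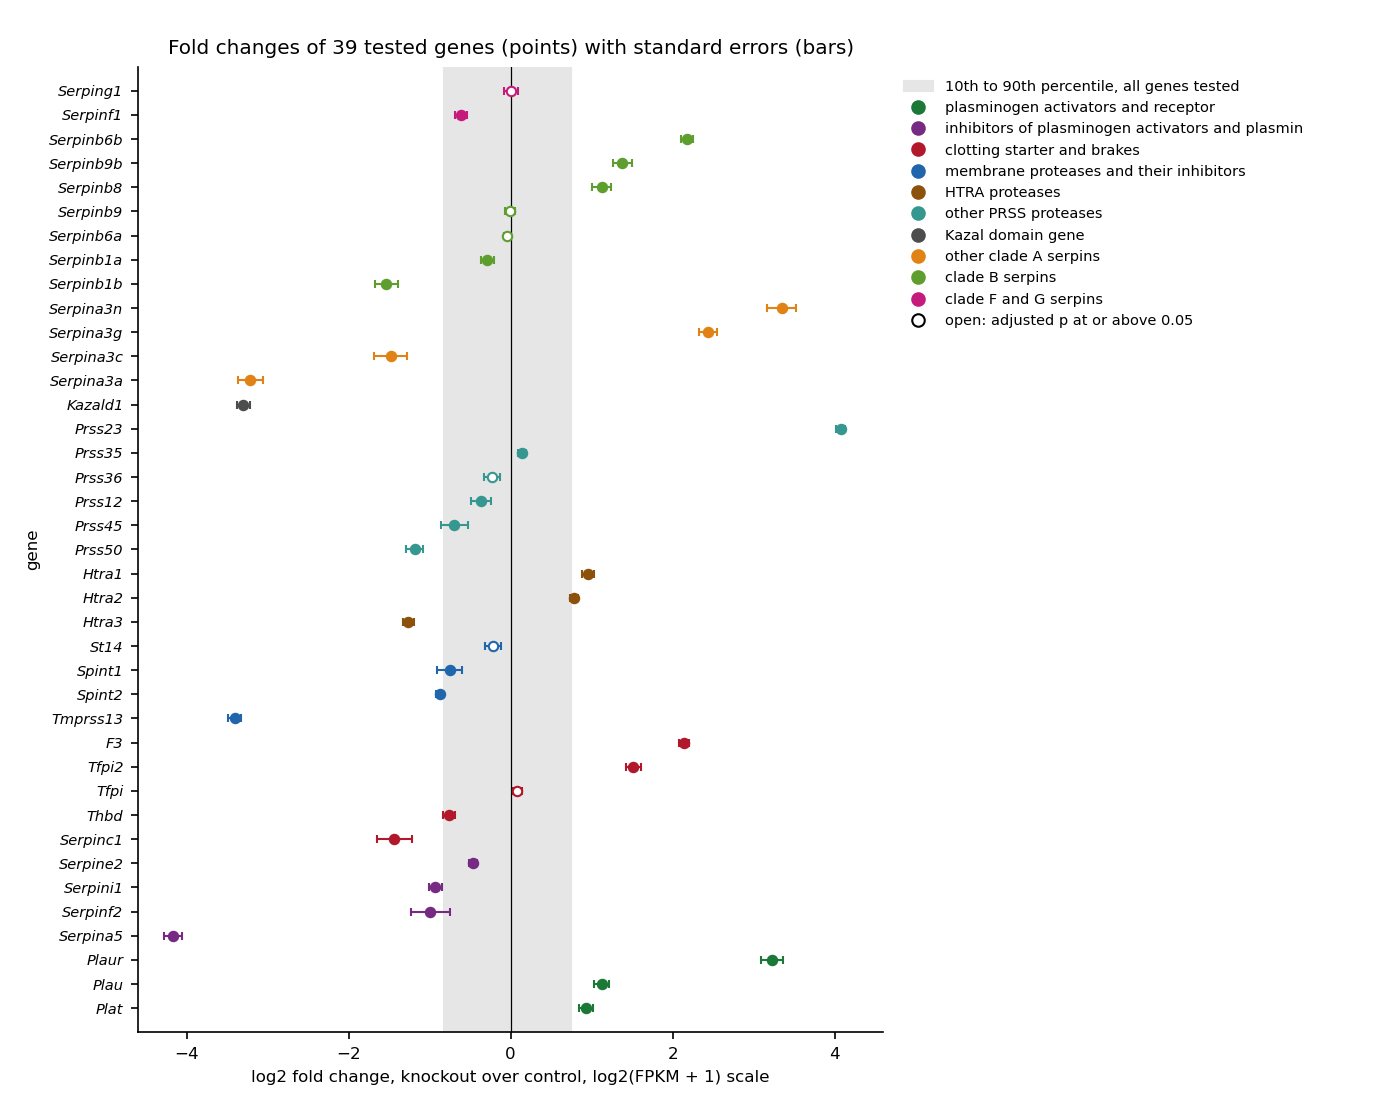
Log2 fold changes of 39 of the tested genes (x axis, knockout over control on the log2(FPKM + 1) scale) by gene (y axis), coloured by role; bars are standard errors and open points did not pass the test. Prss23 (4.07) lies farthest to the right and Serpina5 (-4.17) farthest to the left, and the grey band runs from the 10th percentile (-0.83) to the 90th percentile (0.75) of all genes tested.

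Both plasminogen activator genes and the gene of the urokinase receptor were higher in knockout testes. Plau (chromosome 14, 20836662 to 20843388, GRCm38), the urokinase gene, was at 8.90, 6.83 and 8.60 FPKM in controls 1 to 3 and at 17.0, 19.9 and 19.4 FPKM in knockouts 1 to 3. Plat (chromosome 8, 22757744 to 22782847), the gene of tissue plasminogen activator, was at 16.4, 15.5 and 19.9 FPKM in controls and 31.6, 34.8 and 35.0 FPKM in knockouts. Every knockout library lay above every control library for both genes. Plau rose 2.31-fold (log2 fold change 1.12, SE 0.10, limma adjusted p = 1.18e-05) and Plat 1.96-fold (0.94, SE 0.09, limma adjusted p = 1.74e-05). Their summed level went from 25.4 ± 3.08 to 52.6 ± 3.46 FPKM (SD, n = 3 each).

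The gene of the urokinase receptor was low in controls. Plaur (chromosome 7, 24462500 to 24475873) had 2.26, 2.00 and 3.25 FPKM in controls and 27.8, 35.3 and 31.5 FPKM in knockouts. The lowest knockout value stood well clear of the highest control value. The rise was 12.6-fold (log2 fold change 3.22, SE 0.13, limma adjusted p = 1.78e-07). Macrophages also express Plaur, and their marker sum was higher in every knockout library, as given above.

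Serpins that inhibit the activators or plasmin fell in 4 cases. Serpina5 (chromosome 12, 104101113 to 104106137), which encodes protein C inhibitor, an inhibitor of urokinase, activated protein C and acrosin that male mice need for fertility, was among the most abundant serpin genes of the control testis. It had 47.1, 44.0 and 34.1 FPKM in controls and 1.43, 1.47 and 1.18 FPKM in knockouts. Every knockout library was far below every control library. The fall was 30.7-fold (log2 fold change -4.17, SE 0.11, limma adjusted p = 2.38e-08).

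Serpine2 (chromosome 1, 79794197 to 79858696), the gene of protease nexin 1, which inhibits thrombin and urokinase, had 51.8, 47.4 and 50.9 FPKM in controls and 33.9, 37.1 and 37.0 FPKM in knockouts. The groups did not overlap, and the gene was still well expressed in the knockouts. It fell 1.39-fold (log2 fold change -0.46, SE 0.05, limma adjusted p = 6.30e-05). Serpini1 (chromosome 3, 75557547 to 75643495), the gene of neuroserpin, which inhibits tissue plasminogen activator, had 8.14, 8.29 and 9.82 FPKM in controls and 4.41, 3.95 and 3.96 FPKM in knockouts, a 2.13-fold fall (log2 fold change -0.93, SE 0.08, limma adjusted p = 1.44e-05). Serpinf2, the gene of the plasmin inhibitor α2-antiplasmin, was low throughout, with 1.18, 1.39 and 2.49 FPKM in controls and 0.175, 0.0779 and 0.835 FPKM in knockouts. It passed the test as well (log2 fold change -0.99, SE 0.24, limma adjusted p = 0.00540), but entered it through its controls. The fall was 4.65-fold, and 13.4-fold without knockout 3. Serpinb2 was not analysed here.

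The Sertoli cell marker sum was lower in every knockout library, although its markers moved both ways, as given above, and its part in the fall of Serpina5 and of the other 3 genes was not tested.

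Among clotting genes the initiator F3 rose, while Thbd, a brake that acts on thrombin, fell and Tfpi did not pass the test. F3 (chromosome 3, 121723537 to 121735052) encodes tissue factor, the receptor that starts the clotting cascade. It had 6.46, 7.44 and 6.56 FPKM in controls and 33.4, 35.4 and 31.3 FPKM in knockouts. Both groups were tight and far apart, a 4.89-fold rise (log2 fold change 2.14, SE 0.06, limma adjusted p = 3.72e-08). Thbd (chromosome 2, 148404471 to 148408188) encodes thrombomodulin, which turns thrombin from a clotting enzyme into an activator of protein C. Its levels were 51.6, 49.5 and 43.1 FPKM in controls and 26.9, 27.2 and 29.8 FPKM in knockouts. Each knockout library was below each control library, a 1.72-fold fall (log2 fold change -0.76, SE 0.07, limma adjusted p = 1.91e-05). The ratio of Thbd to F3 was 7.08 ± 0.797 in control and 0.841 ± 0.0966 in knockout libraries (SD, n = 3 each), so the gene that was the higher of the pair in controls was the lower in knockouts.

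The inhibitor genes Tfpi, Tfpi2 and Serpinc1 did not move as 1 group. Tfpi, the gene of tissue factor pathway inhibitor, had 18.5, 16.7 and 16.6 FPKM in controls and 18.1, 17.7 and 19.3 FPKM in knockouts. The groups overlapped and the test was not passed (log2 fold change 0.08, SE 0.05, limma adjusted p = 0.206). Tfpi2 (chromosome 6, 3962594 to 3968375) encodes a Kunitz-type inhibitor of plasmin and other matrix-associated serine proteases. It had 1.86, 2.02 and 1.78 FPKM in controls and 6.52, 7.16 and 8.13 FPKM in knockouts. Its groups were well apart, a 3.86-fold rise (log2 fold change 1.52, SE 0.09, limma adjusted p = 1.31e-06). Serpinc1, the antithrombin gene, had 3.18, 3.30 and 1.92 FPKM in controls and 0.263, 0.126 and 0.859 FPKM in knockouts, a 6.72-fold fall (log2 fold change -1.44, SE 0.21, limma adjusted p = 0.000365) that came to 14.4-fold without knockout 3. An antisense gene overlaps 34.4% of its exon bases, which makes its level uncertain without a known strand setting.

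**Figure D2:**
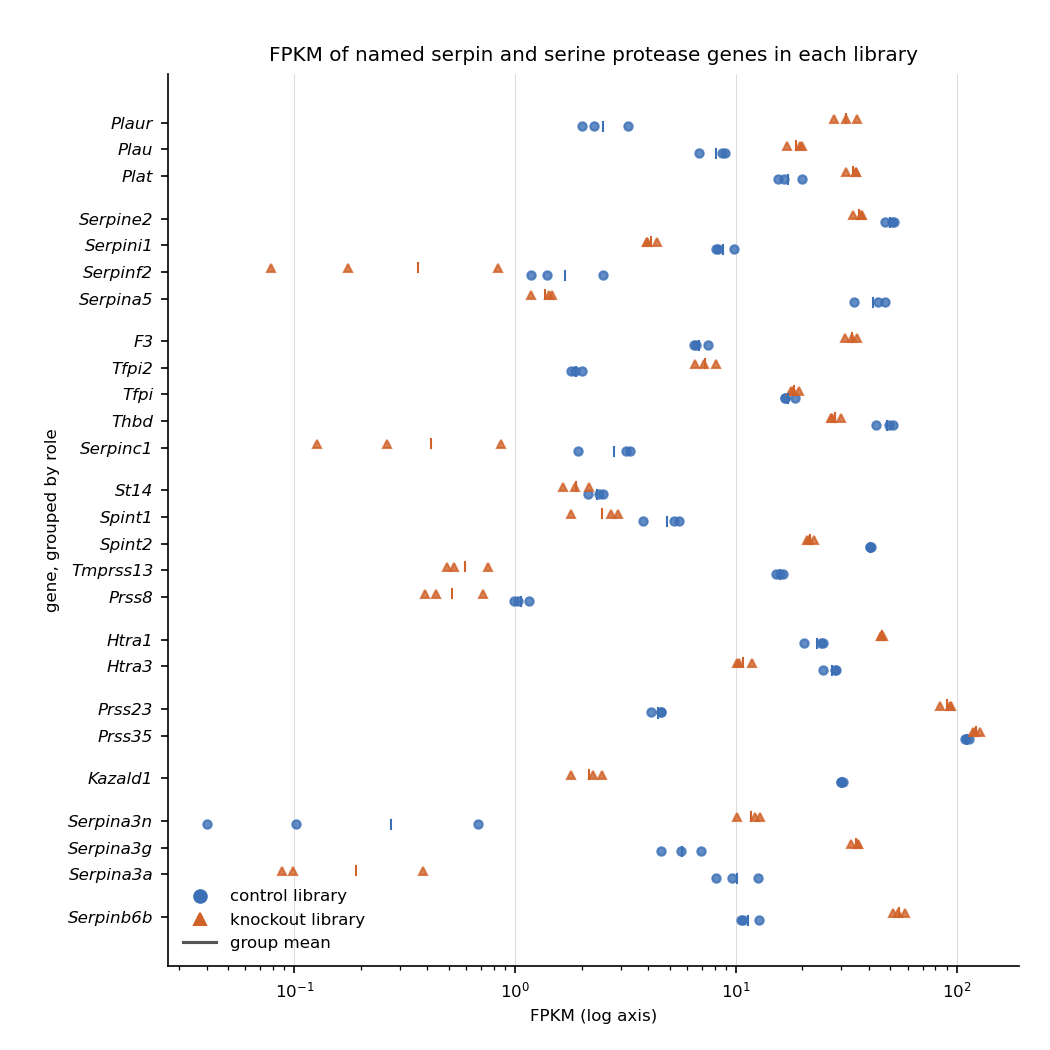
FPKM (x axis, log scale) of the genes of the plasminogen, clotting, membrane protease and other protease and serpin groups (y axis, grouped by role); each point is 1 library, 3 control and 3 knockout, and vertical ticks are group means. The groups are apart for F3 (6.46 to 7.44 against 31.3 to 35.4 FPKM) and overlap for Tfpi and St14.

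Promoter sequence was available for 39 of the 52 genes, as 250 bases before to 50 bases after the start site in RefSeq on GRCm38.p6. Windows were searched on both strands for GGAATG (reverse complement CATTCC), the core bound by TEAD factors, the DNA-binding partners of YAP and TAZ, for TGANTCA, the AP-1 site, and for AACAAT (reverse complement ATTGTT), a core of SOX factors. The motifs share no letters at the matches printed. The TEAD core was in 5 of 39 windows (12.8%) and in 12.3% of the 11074 windows of all genes in the table. The AP-1 site was in 9 of 39 (23.1%) against 4.88% of all windows, and the SOX core in 2 (5.13%) against 5.63%. Of 11 genes with a window that rose, 4 held an AP-1 site and none held a TEAD or SOX core. Of 16 that fell, 1 held an AP-1 site (Spint1, 6 bases before the start site), 2 a TEAD core (Serpina5 and Serpinb1b) and 1 a SOX core (Serpina5). These counts leave out genes too low for the test and genes that did not pass it. Of the low genes, Serpina3i, with higher values in knockouts, and Tmprss2, with lower values there, hold a TEAD core. Prss42 and Serpinb5, with lower values in knockouts, and Serpina1c, whose groups overlapped, hold AP-1 sites. Prss53, also with lower values in knockouts, holds SOX cores. Of those that did not pass, Prss36 holds an AP-1 site and Serpinb6a a TEAD core. The 4 rising genes with an AP-1 site, F3, Plaur, Tfpi2 and Serpinb8, are shown with that site in capitals. They were picked by direction and site at once, so their shared direction is no result. Windows of the other members with that site are not printed. Serpina5, whose fall was the largest of the set on the log2(FPKM + 1) scale, is shown with its TEAD and SOX matches in capitals. All are printed 5′ to 3′ on the gene's strand, at chr3:121723287-121723586 (plus strand) for F3, chr7:24462233-24462532 (plus) for Plaur, chr6:3968326-3968625 (minus) for Tfpi2, chr1:107589756-107590055 (plus) for Serpinb8 and chr12:104100863-104101162 (plus) for Serpina5.
F3: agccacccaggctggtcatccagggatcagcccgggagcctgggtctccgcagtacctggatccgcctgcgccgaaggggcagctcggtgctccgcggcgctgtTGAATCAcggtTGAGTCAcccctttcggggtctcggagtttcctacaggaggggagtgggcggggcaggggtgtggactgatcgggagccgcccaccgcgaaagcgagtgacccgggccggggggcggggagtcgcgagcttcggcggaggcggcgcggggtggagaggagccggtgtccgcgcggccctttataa
Plaur: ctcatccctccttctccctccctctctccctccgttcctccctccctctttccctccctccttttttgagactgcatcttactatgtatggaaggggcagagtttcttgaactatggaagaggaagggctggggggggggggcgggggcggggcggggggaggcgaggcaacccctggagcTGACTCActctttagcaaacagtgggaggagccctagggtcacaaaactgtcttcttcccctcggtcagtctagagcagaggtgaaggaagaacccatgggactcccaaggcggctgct
Tfpi2: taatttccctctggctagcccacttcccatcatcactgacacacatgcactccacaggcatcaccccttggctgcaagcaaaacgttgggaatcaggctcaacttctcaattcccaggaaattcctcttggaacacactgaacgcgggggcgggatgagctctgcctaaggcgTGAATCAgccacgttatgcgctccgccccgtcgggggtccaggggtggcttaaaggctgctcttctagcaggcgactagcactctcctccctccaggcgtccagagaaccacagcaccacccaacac
Serpinb8: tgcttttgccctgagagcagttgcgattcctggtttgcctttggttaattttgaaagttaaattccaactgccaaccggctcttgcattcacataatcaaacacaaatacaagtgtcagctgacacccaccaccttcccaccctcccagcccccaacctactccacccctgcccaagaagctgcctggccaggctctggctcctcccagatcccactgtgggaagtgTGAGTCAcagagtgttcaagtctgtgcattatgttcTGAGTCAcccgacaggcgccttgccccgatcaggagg
Serpina5: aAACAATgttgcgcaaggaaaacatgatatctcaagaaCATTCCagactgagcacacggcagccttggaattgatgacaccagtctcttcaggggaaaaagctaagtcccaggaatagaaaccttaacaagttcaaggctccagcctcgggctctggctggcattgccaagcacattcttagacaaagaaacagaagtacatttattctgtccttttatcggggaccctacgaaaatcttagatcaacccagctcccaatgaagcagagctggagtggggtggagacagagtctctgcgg
The AP-1 matches begin 146 and 135 bases before the start site in F3, 69 bases before it in Plaur, 77 bases before it in Tfpi2, and 23 bases before and 13 bases after it in Serpinb8. In Serpina5 the TEAD match begins 212 bases and the SOX match 249 bases before the start site. A match describes letters in these windows, not a bound site.

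Of the membrane-anchored proteases and their inhibitors, the inhibitors fell while matriptase itself did not pass the test. St14, the matriptase gene, had 2.14, 2.41 and 2.51 FPKM in controls and 1.65, 2.16 and 1.87 FPKM in knockouts. The groups overlapped by 1 library (log2 fold change -0.22, SE 0.10, limma adjusted p = 0.0809), and without knockout 2 the adjusted p was 0.0471. Spint1 and Spint2 encode the Kunitz-type inhibitors HAI-1 and HAI-2, which hold matriptase and prostasin in check. Spint2 (chromosome 7, 29256331 to 29281977) had 40.3, 40.3 and 40.8 FPKM in controls and 22.5, 20.9 and 21.4 FPKM in knockouts. Values were even within each group, and the fall was 1.87-fold (log2 fold change -0.88, SE 0.04, limma adjusted p = 3.19e-07). Spint1 had 3.81, 5.25 and 5.49 FPKM in controls and 2.93, 2.72 and 1.79 FPKM in knockouts, a 1.96-fold fall with no overlap (log2 fold change -0.75, SE 0.16, limma adjusted p = 0.00255). Prss8, the prostasin gene, was under the level needed for the test, with 1.02, 0.991 and 1.16 FPKM in controls and 0.438, 0.391 and 0.715 FPKM in knockouts.

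Tmprss13 (chromosome 9, 45319100 to 45347581), a transmembrane serine protease gene, had 15.2, 15.9 and 16.3 FPKM in controls and 0.750, 0.530 and 0.489 FPKM in knockouts. It was well expressed in every control library and near the bottom of the scale in every knockout library. The fall was 26.8-fold (log2 fold change -3.41, SE 0.08, limma adjusted p = 1.65e-08). Tmprss2, a further member of that family, was below the test's level, at 1.03 ± 0.223 FPKM in controls and 0.145 ± 0.0553 FPKM in knockouts (SD, n = 3 each).

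The HTRA genes, which encode trimeric serine proteases with PDZ domains, split. Htra1 (chromosome 7, 130936111 to 130985660), a secreted protease that cuts matrix proteins, had 24.4, 24.8 and 20.3 FPKM in controls and 45.4, 46.4 and 45.3 FPKM in knockouts. Htra3 (chromosome 5, 35652041 to 35679782), also secreted, had 28.3, 28.0 and 24.9 FPKM in controls and 11.8, 10.3 and 10.1 FPKM in knockouts. The secreted pair was at similar levels in controls and moved in opposite directions without overlap. Htra1 rose 1.97-fold (log2 fold change 0.96, SE 0.07, limma adjusted p = 4.83e-06), while Htra3 fell 2.53-fold (-1.26, SE 0.07, limma adjusted p = 1.09e-06). Htra2, a protease of mitochondria, rose from 11.7 ± 0.473 to 20.9 ± 0.807 FPKM (SD, n = 3 each). Antisense genes overlap 43.7% of its exon bases and the strand setting is not given, so its level is uncertain.

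Among the Prss genes, Prss23 stood out in size. Prss23 (chromosome 7, 89507785 to 89517586), a secreted protease gene also known from the mouse ovary, had 4.57, 4.12 and 4.56 FPKM in controls and 83.9, 93.7 and 93.01 FPKM in knockouts. It went from a modest level to the second highest mean of the set in knockout testes. The rise was 20.4-fold (log2 fold change 4.07, SE 0.06, limma adjusted p = 1.60e-09). An antisense gene overlaps 22.9% of its exon bases, where reads cannot be assigned without strand. Prss35 (chromosome 9, 86743633 to 86758272), a related secreted protease gene, was the highest of the set in both groups, with 114, 110 and 108 FPKM in controls and 127, 121 and 119 FPKM in knockouts. The groups were close but did not overlap, with a 1.10-fold rise (log2 fold change 0.14, SE 0.05, limma adjusted p = 0.0263) that did not pass without control 3 (adjusted p = 0.107), or without knockout 1, 2 or 3 (0.106, 0.0749 and 0.0546). Prss12, the neurotrypsin gene, fell 1.45-fold (log2 fold change -0.36, SE 0.12, limma adjusted p = 0.0243). It did not pass without control 1 or 2 (adjusted p = 0.0814 and 0.0867) or knockout 2 or 3 (0.0619 and 0.0849). Prss36 did not pass (limma adjusted p = 0.0707).

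The low Prss genes of chromosome 9 lie together. Prss42, Prss44, Prss45 and Prss50 occupy 66.4 kb (110798185 to 110864628), and the mouse Prss42, Prss44 and Prss50 proteases are known from testicular germ cells. Prss50 fell from 1.96, 2.12 and 1.65 FPKM to 0.279, 0.249 and 0.303 FPKM (log2 fold change -1.18, SE 0.11, limma adjusted p = 1.52e-05). Prss45 fell from 2.33 ± 0.679 to 1.04 ± 0.269 FPKM (SD, n = 3 each; limma adjusted p = 0.00543). Prss42 and Prss44 were under the test's level, at 1.53 ± 0.0506 and 1.02 ± 0.0426 FPKM in controls and 0.185 ± 0.0596 and 0.0574 ± 0.0652 FPKM in knockouts. The last of these values rests on 4 reads, 3 of them in knockout 3. In each of these 4 genes every knockout library was below every control library. The germ cell marker sum was lower in every knockout library too, and its part here was not tested. Prss34, a mast cell protease gene of mouse, was listed at 0 in 2 control libraries and at 0.408 FPKM in the third, and had 0.467, 0.968 and 1.45 FPKM in knockouts, beside a mast cell marker sum that was also higher.

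Kazald1 (chromosome 19, 45075241 to 45079289), which encodes a secreted protein with a Kazal-type protease inhibitor domain, had 30.02, 30.5 and 29.8 FPKM in controls and 2.46, 2.26 and 1.78 FPKM in knockouts. The controls were almost level with each other and far above every knockout library. It fell 13.9-fold (log2 fold change -3.30, SE 0.08, limma adjusted p = 1.65e-08).

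On chromosome 12, 10 clade A serpin genes of the set lie within 768 kb (103646630 to 104414329), and neighbours went opposite ways. Serpina3a (104112724 to 104121896), next to Serpina5, had 12.6, 9.62 and 8.10 FPKM in controls and 0.0879, 0.0980 and 0.382 FPKM in knockouts. It was close to undetected in the knockouts, a 53.4-fold fall (log2 fold change -3.21, SE 0.16, limma adjusted p = 4.95e-07). Without knockout 3 it was 109-fold. Serpina3c followed it, from 2.32 ± 1.03 to 0.155 ± 0.0637 FPKM (SD, n = 3 each; limma adjusted p = 0.000218).

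The next 3 genes along the chromosome had higher values in knockouts. Serpina3g (104236245 to 104241939), whose mouse product inhibits lysosomal cathepsins, had 4.55, 5.62 and 6.95 FPKM in controls and 33.3, 35.7 and 35.6 FPKM in knockouts. The groups were well apart, a 6.11-fold rise (log2 fold change 2.43, SE 0.11, limma adjusted p = 3.34e-07). Serpina3n (104406729 to 104414329), whose mouse product inhibits granzyme B, had 0.102, 0.676 and 0.0400 FPKM in controls and 12.2, 12.9 and 10.1 FPKM in knockouts. Control libraries held 22 reads of it in all and knockout libraries 839, a 42.9-fold rise (log2 fold change 3.35, SE 0.18, limma adjusted p = 7.77e-07). Control 2 alone held 19 of those 22 reads, and without it the rise was 165-fold. Serpina3i, between them, was below the test's level at 0.0248 ± 0.0429 and 0.987 ± 0.314 FPKM. These are close copies: 15.5% of the 50-base words of Serpina3g, 15.9% of those of Serpina3i and 6.90% of those of Serpina3n occur in another gene, so reads could be split between them.

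**Figure D3:**
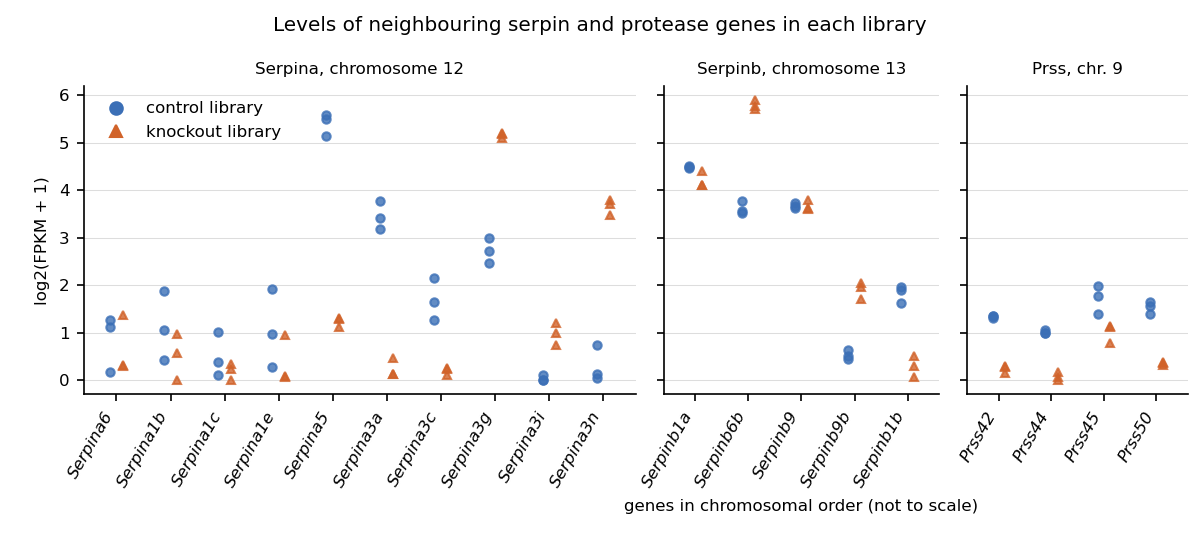
Level as log2(FPKM + 1) (y axis) of neighbouring genes in chromosome order (x axis, not to scale) on chromosomes 12, 13 and 9; each point is 1 library, 3 control and 3 knockout. Serpina5, Serpina3a and Serpina3c are lower and Serpina3g, Serpina3i and Serpina3n higher in knockout libraries, while all 4 Prss genes of chromosome 9 are lower.

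The 4 genes at the other end of that stretch were low and uneven. Serpina1b, Serpina1c and Serpina1e, which encode α1-antitrypsins of liver and plasma, and Serpina6, which encodes corticosteroid-binding globulin, were under 1 FPKM on average and their groups overlapped. Serpina1b had 0.347, 2.66 and 1.09 FPKM in controls and 0.489, 0 and 0.967 FPKM in knockouts. Up to 79.3% of the 50-base words in the Serpina1 genes (Serpina1c) occur in another gene. Other plasma protein genes of liver varied between libraries in a partly like order. Albumin (Alb) had 14.4, 46.1 and 20.4 FPKM in controls and 10.01, 1.99 and 28.5 FPKM in knockouts, and Ahsg, the fetuin-A gene, had 12.7, 29.1 and 15.2 FPKM and 2.97, 0.737 and 8.56 FPKM. Control 2 was the highest library for both genes and for the 3 Serpina1 genes, and knockout 3 was the highest knockout for Alb, Ahsg, Serpina1b, Serpina1e, Serpina6, Serpinc1 and Serpinf2. The order of the controls differed for some. Serpinf2 was highest in control 3, with control 2 at 55.9% of it, and Serpina6 was highest in knockout 3. Serpinc1 in control 1 was at 96.2% of its level in control 2, and in control 3 at 58.0%. The summed level of 7 liver markers, a list chosen after these values were seen, was 34.7 to 113 FPKM in controls and 4.86 to 51.5 FPKM in knockouts, of which 3 fell and 4 did not pass. Its part in the falls of Serpinc1 and Serpinf2 was not tested.

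**Figure D4:**
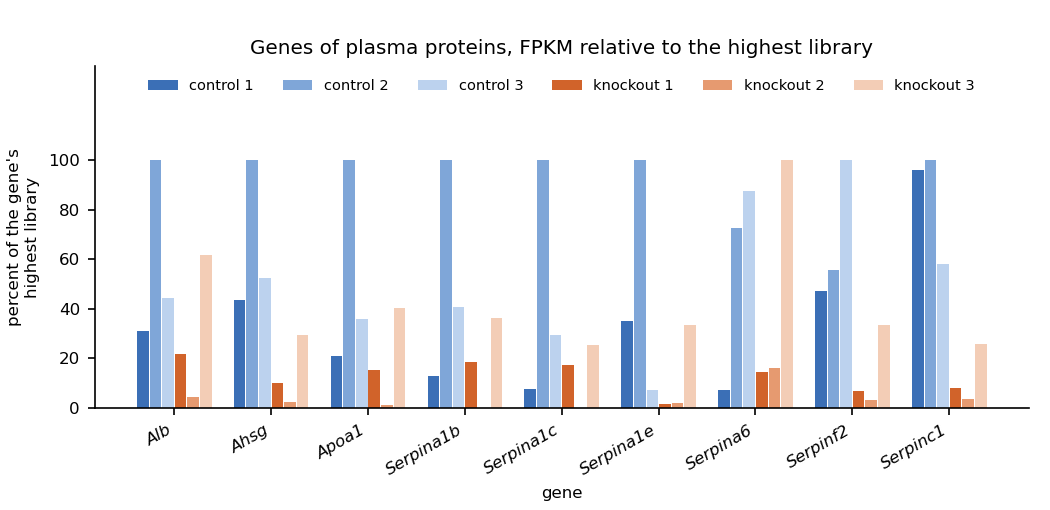
Level of plasma protein genes (x axis) as a percent of each gene's highest library (y axis), with 1 bar for each of the 6 libraries, for Alb, Ahsg and Apoa1 and for the serpin genes Serpina1b, Serpina1c, Serpina1e, Serpina6, Serpinf2 and Serpinc1. Knockout 3 is at 62.0% for Alb, 33.6% for Serpinf2 and 26.0% for Serpinc1, above knockouts 1 and 2 in each.

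Clade B serpins act inside cells, and those measured moved unevenly. Serpinb6b (chromosome 13, 32965209 to 32979067) had 10.5, 10.8 and 12.7 FPKM in controls and 51.4, 54.2 and 58.4 FPKM in knockouts. All knockout libraries were far above the controls, a 4.82-fold rise (log2 fold change 2.18, SE 0.07, limma adjusted p = 7.29e-08). Its relative Serpinb6a, an inhibitor of cathepsin G, was at 27.3 ± 0.798 and 26.5 ± 0.752 FPKM (SD, n = 3 each; limma adjusted p = 0.371). Antisense genes overlap 29.3% of the exon bases of Serpinb6a and 25.1% of its 50-base words occur in another gene, so its level is uncertain. Serpinb9b rose from 0.447 ± 0.101 to 2.78 ± 0.455 FPKM (limma adjusted p = 1.26e-05), and Serpinb9, the gene of a granzyme B inhibitor that shields cytotoxic cells and their neighbours, was at 11.8 ± 0.528 and 11.7 ± 0.985 FPKM (limma adjusted p = 0.909). Serpinb1a, an inhibitor of neutrophil elastase, fell from 21.5 ± 0.265 to 17.5 ± 2.27 FPKM (limma adjusted p = 0.00952), and its copy Serpinb1b from 2.58 ± 0.425 to 0.236 ± 0.181 FPKM (limma adjusted p = 1.99e-05), or 0.146 FPKM without knockout 3. Serpinb8 rose from 0.738 ± 0.142 to 2.80 ± 0.439 FPKM (limma adjusted p = 4.13e-05). Serpinb5, the maspin gene, was under the test's level, at 1.53 ± 0.342 and 0.176 ± 0.131 FPKM. The genes from Serpinb1a to Serpinb1b lie in 252 kb of chromosome 13 with Serpinb6b, Serpinb9 and Serpinb9b between them, so here too neighbours differed in direction.

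In clades F and G, Serpinf1, the gene of the anti-angiogenic factor PEDF, fell from 17.7 ± 1.64 to 11.2 ± 0.702 FPKM (SD, n = 3 each; log2 fold change -0.61, SE 0.07, limma adjusted p = 8.64e-05). Serping1, the gene of the complement C1 inhibitor, was at 26.5 ± 3.59 and 26.4 ± 0.444 FPKM with overlapping groups (log2 fold change 0.00, SE 0.09, limma adjusted p = 0.973). Without control 3, its lowest library at 22.4 FPKM, it passed as lower (log2 fold change -0.11, limma adjusted p = 0.0298).

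Genes that act with these proteases, and further protease and inhibitor genes, were followed in lists. The counts of all lists stand against 35.2% higher and 33.7% lower over all genes tested, 68.9% in all. Genes with 1 group mean under 1 FPKM entered the test through their other group here too. The counts carry no weight for that reason. Those past the test were F5, Fgb, Plg, Vtn, Ctrl, Mcpt4, Tpsab1, Tpsb2, Papln, Spink2, Spock1 and Wfdc10, and their tests carry no weight either. The same holds for Fshr, Pnmt and Apoh among the cell markers. Of 14 tested partners of plasminogen and fibrinolysis, 9 rose, 2 fell and 3 did not pass, with a median log2 fold change of 0.28. Itgam, which encodes an integrin subunit of macrophages and other myeloid cells, rose from 1.05 ± 0.0402 to 7.36 ± 0.916 FPKM, and Vldlr, an endocytic receptor for complexes of activators and serpins, from 4.31 ± 0.188 to 10.8 ± 0.816 FPKM. Anxa2, a surface docking protein for plasminogen and tissue plasminogen activator, rose 1.57-fold. Lrp1, which clears inhibitor complexes, was at 26.8 ± 1.76 and 25.6 ± 2.08 FPKM (limma adjusted p = 0.423). Plg, the plasminogen gene, which is made mainly in liver, was at 1.97 FPKM in controls and 0.387 FPKM in knockouts on average. Of 12 tested genes of the clotting cascade and the protein C system, 4 rose, 4 fell and 4 did not pass, a share past the test near the 68.9% of all genes. Those that fell were F5, Fgg, Vwf and Fgb, with overlapping groups for Fgb. Control 2 was the highest control and knockout 3 the highest knockout for Fgg and Fgb, as for Alb. The same held for Plg and Vtn, the 2 plasminogen partners that fell. The part of the liver markers in these falls was not tested. F13a1, the fibrin cross-linking factor XIII subunit, which macrophages also make, rose 5.58-fold. Gas6, which encodes a vitamin K-dependent ligand of TAM receptors, rose from 46.2 ± 1.84 to 74.7 ± 3.00 FPKM, and Procr, the protein C receptor, from 5.08 ± 0.457 to 7.63 ± 0.585 FPKM.

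Of 7 tested protease-activated receptors and substrates, 4 rose and 3 fell, against 35.2% and 33.7% of all genes tested. F2r, the thrombin receptor PAR1, had 19.4, 19.8 and 21.2 FPKM in controls and 66.0, 78.3 and 72.6 FPKM in knockouts, a 3.59-fold rise with no overlap (log2 fold change 1.79, SE 0.06, limma adjusted p = 9.37e-08). Tgfb1, the gene of a growth factor whose latent form plasmin can activate, rose from 10.9 ± 0.497 to 27.4 ± 1.74 FPKM. Of 24 tested genes of serine proteases and their relatives outside the set, 14 rose, 5 fell and 5 did not pass, against the same 35.2% and 33.7%. The smallest p-values were those of Dpp4 (12.1-fold higher), the gene of a membrane dipeptidase, and the mast cell chymase gene Cma1 (16.5-fold higher), while the mast cell tryptase genes Tpsab1 and Tpsb2 had larger folds (19.8 and 17.0). Of 18 tested genes of protease inhibitors and their relatives outside the set, 3 rose, 13 fell and 2 did not pass, against 35.2% higher and 33.7% lower over all genes tested, with a median log2 fold change of -1.26. That list is not limited to inhibitors of serine proteases, and holds Reck and the cystatin genes Cst3, Cst8, Cst9 and Cst12. Spock2, a testican proteoglycan gene, fell from 43.9 ± 3.56 to 4.03 ± 0.260 FPKM, and Wfdc1, a secreted four-disulfide-core protein gene, from 29.1 ± 3.13 to 5.39 ± 0.633 FPKM (SD, n = 3 each).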

How the data were processed

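Whole-testis RNA was sequenced in 3 control and 3 knockout libraries, aligned with STAR, per the labels' protocols. Per the submitters' processing notes the build was GRCm38 and the authors used DESeq2 1.22.2. Which tool counted reads, and with which strand setting, is not stated in the sources. Deposited values are the authors' FPKM for each library and, per the file headers, their log2 fold changes, p-values with FDR from DESeq and EdgeR columns, and −log10 p-values. Because FPKM are not counts, all genes averaging 1 FPKM or more were fitted with limma 3.58.1 in R 4.3.3 on log2(FPKM + 1), with an intensity trend and two-sided tests. Tables and figures used Python 3.11.15, pandas 2.3.3 and matplotlib 3.10.9. FPKM could be read as whole multiples of 1 read, which gave reads and library totals. In 48.2% of genes with an annotated exon length, that length gave whole reads. In most others, reads are the smallest whole numbers that also give a length of whole bases. They could be off there by a whole factor. The table holds 75.4% to 81.6% of the library totals.

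The members and lists were chosen with earlier results of these data known. Libraries are described one by one for members past the test with at least 5 FPKM in the higher group and a 2-fold change, for the plasminogen, clotting and membrane protease genes and Kazald1 whatever they did, and for members past the test that averaged 20 FPKM or more; from each list the 2 genes with the smallest p and fixed receptors were named. A gene that this rule takes is not reported here. Other genes named were chosen after their values were seen. Alternatives were other filters and pseudocounts, scaling, limma-voom on the recovered reads, a replicate block, and leaving out each library.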

Additional observations from a re-analysis of the deposited data

How the results depend on the processing

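All 34 serpin and protease genes past the test kept their direction under every alternative in which they were tested, and 32 to 34 of the 34 stayed past it wherever all were fitted. Only Prss35 and Prss12 were lost. St14 passed in limma-voom on the recovered reads (log2 fold change -0.34, adjusted p = 0.0418) and without knockout 2 (-0.28, adjusted p = 0.0471), and Serping1 passed as lower without control 3 (-0.11, adjusted p = 0.0298). Leaving out 1 library gave 14 to 15 higher and 18 to 20 lower genes of the set. With a mean of at least 5 FPKM, which tests fewer genes, lower genes numbered 2903 over all genes, 11 in the set, 7 among other inhibitors, 3 among other serine proteases, and in limma 0 of 6 in the clotting list and 0 of 9 among plasminogen partners (0 at an unadjusted p under 0.05 in each). With no filter, lower genes among other serine proteases numbered 8.

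The labels do not say whether replicate numbers pair the libraries, and values from 3 libraries in each group cannot decide it. Deviations of libraries with the same number correlated at -0.007, -0.016 and 0.097 across genes, and control 1 correlated best with knockout 2. With the number as a replicate block, 9359 genes passed against 9492, and of the 34 only Prss35 was lost (log2 fold change 0.14, adjusted p = 0.0803). Without a library, Prss35 ranged from 0.11 to 0.16. Depth limits the genes under 1 FPKM, which rest on few reads.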
